A study of Homo sapiens with 18 samples.

Results

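Cell-cycle and replication genes driven by the E2F transcription factors were examined for peaks of EHMT1 and of its histone mark in LNCaP cells, a human prostate cancer line that grows in response to androgen. The 28 genes are MCM2, MCM3, MCM4, MCM5, MCM6, MCM7, MCM10, CDC6, CDT1, ORC1, CCNE1, CCNE2, CCNA2, CDK1, CDC25A, E2F1, E2F2, MYBL2, RRM1, RRM2, TK1, TYMS, PCNA, POLA1, POLE, RFC4, BRCA1 and CHEK1. They were taken by name as known E2F targets out of 20083 protein-coding genes of GENCODE version 44 on hg19. The rule used no measured value, but the list was chosen with earlier results of these data known. For each gene, peaks were counted by their summits in the gene body plus 10 kb on either side, with 1 kb around the annotated gene start left out and counted apart as the promoter.

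The labels gave 18 chromatin immunoprecipitation (ChIP-seq) samples in 9 groups of 2 replicates. Of these, 8 groups came from 4 stable LNCaP lines, each carrying a doxycycline-regulated construct for the histone methyltransferase EHMT1 with a V5 tag. The tagged protein was wild type (WT) or had arginine in place of a lysine (K450R or K451R) or of both lysines (K450RK451R). All 4 lines were treated with 0.5 µg/ml doxycycline for 2 days, and their chromatin was precipitated with an anti-V5 antibody and with an antibody to dimethylated lysine 9 of histone H3 (H3K9me2), the mark EHMT1 places. The ninth group was untreated parental LNCaP precipitated with an antibody to EHMT1. LNCaP cells have their own EHMT1, so the tagged protein came on top of it, and the sources used here do not state whether a line was 1 clone. No line without doxycycline was analysed.

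Each group had 1 deposited peak list and no values per replicate, so no spread between replicates and no test between conditions could be given. The lists held 581 to 1626 peaks on chromosomes 1 to 22 and X, apart from V5 K450RK451R with 14594. The reads behind them, estimated from the peak values, ranged from 8.79 M to 27.6 M reads, with 8.84 M for V5 WT and 22.7 M for V5 K450RK451R. The median number of reads at a summit was 9 in V5 K450RK451R and 25 to 36 in the other 8 lists. In V5 K450RK451R, 52.4% of summits lay in sequence matching 7SL RNA, the ancestor of Alu repeats, compared with 13.7% of random windows and 1.13% to 3.001% of summits in the other lists.

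E2F factors bind DNA together with DP partners and switch on the genes that carry a cell from G1 into S phase. In resting cells the retinoblastoma protein and its relatives hold E2F factors in check, and cyclin-dependent kinases release them. Their targets include the helicase that unwinds origins, the enzymes that make nucleotides and the polymerases that copy DNA, as well as several E2F genes themselves. EHMT1, also called GLP, works with EHMT2 in placing H3K9me2, a mark of silent chromatin.

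The study asked which chromatin sites tagged EHMT1 occupied in each line, and the 28 genes address this for the E2F program. A V5 K450RK451R summit lay in the window of 4 of the 28 genes, CCNE2, CDC25A, PCNA and POLA1, with 1 peak each. This was 14.3% (95% Wilson interval 5.70 to 31.5%), beside 25.4% of the other 20055 protein-coding genes. Other genes of like length, with windows from 80% to 125% as long as the member's, had a peak in 19.97% of cases on average, which corresponds to 5.59 of 28 genes. The share of members minus this share was −5.69 percentage points, and the interval of the members' share holds 19.97%. Without peaks that match 7SL, the 4 genes stayed, the share of genes of like length was 8.42% and the difference turned to 5.86 points. The interval of the members' share, 5.70 to 31.5%, holds 8.42% as well. At a −log10 q of at least 5, 0 of the 28 genes had a peak. Median gene length was 22.4 kb in the 28 genes and 27.3 kb in the others, and the median GC content of the windows was 44.8% and 44.5%.

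In the other lists, peaks at these genes were almost absent. TYMS had 1 H3K9me2 peak in the K451R line, which made 1 of 28 genes (3.57%, Wilson interval 0.633 to 17.7%), beside 0.898% of other genes. The remaining 7 lists had 0 of 28 genes with a peak, which allows a share of up to 10.7%. Beside these zeros, the share of other genes was 0.334% for V5 WT, 0.354% for V5 K450R and 0.548% for V5 K451R. For H3K9me2 it was 0.519% in WT, 0.568% in K450R and 0.798% in K450RK451R. Endogenous EHMT1 had a peak at 2.31% of other genes, or 1.66% of those of like length. For all of these 7 lists, fewer than 1 gene of 28 would hold a peak at the share of genes of like length. Intervals and limits here cover counting error only. Absence from an H3K9me2 list of narrow peaks does not show that a gene lacks the mark.

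**Figure D1:**
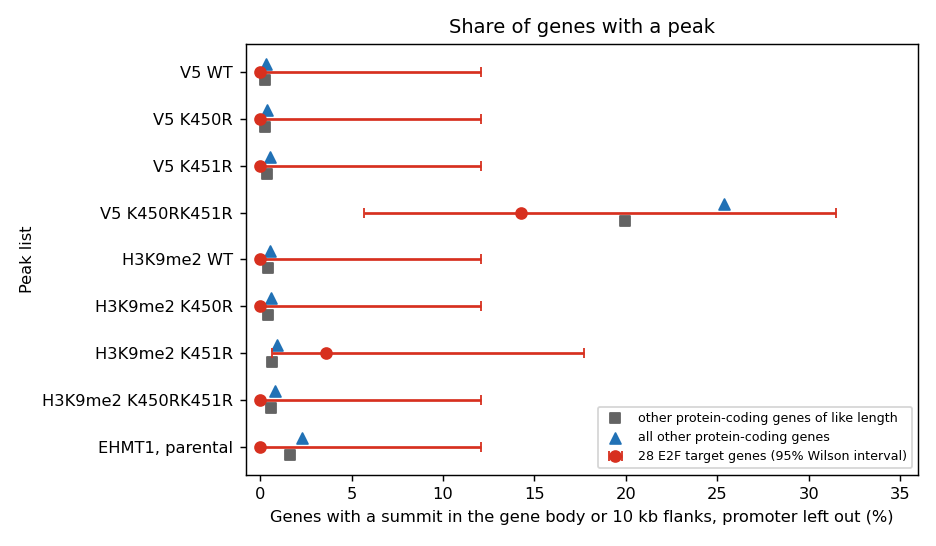
Share of genes (%, horizontal axis) with a summit in the gene body or 10 kb flanks, outside the promoter, for each of the 9 peak lists. Red circles are the 28 E2F target genes with 95% Wilson intervals, grey squares other protein-coding genes of like length and blue triangles all other protein-coding genes. V5 K450RK451R is the only list with more than 1 of the 28 genes, and its 14.3% sits left of both the 19.97% and the 25.4%.

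The 10 licensing genes, which build and load the helicase at origins, had no peak in any of the 9 lists. They are MCM2 to MCM7, the subunits of the helicase ring, MCM10, which helps it to start, ORC1, which marks origins, and CDC6 and CDT1, which load the ring. At the share of genes of like length, which ran from 7.76% for CDT1 to 25.8% for MCM10, 1.55 of the 10 would hold a V5 K450RK451R peak. The nearest V5 K450RK451R summit lay 41.3 kb from the start of MCM10, 53.8 kb from MCM4, 74.2 kb from CDT1 and 82.1 kb from MCM7. At MCM6 it lay 213 kb and at ORC1 205 kb away.

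E2F-type sequence was most frequent in the promoters of these genes, although no peak lay near them. Promoters of 300 bases, from 250 before to 50 after the start of the canonical transcript, were searched on both strands for 4 strings of 8 bases, TTTCCCGC, TTTCGCGC, TTTGCCGC and TTTGGCGC. A string on one strand can overlap one on the other. At least 1 was found in 15 of the 28 genes (53.6%, Wilson interval 35.8 to 70.5%) and in 4.27% of the promoters of other protein-coding genes. All 6 of MCM2 to MCM7 had one, as did 8 of the 10 licensing genes. The MCM6 promoter on the minus strand (chr2:136634014-136634263, hg19, the 250 bases before the RefSeq start) is shown because it held the most, with 4 strings in 2 pairs. Capitals mark each pair, in which a string on one strand overlaps one on the other:
MCM6 promoter: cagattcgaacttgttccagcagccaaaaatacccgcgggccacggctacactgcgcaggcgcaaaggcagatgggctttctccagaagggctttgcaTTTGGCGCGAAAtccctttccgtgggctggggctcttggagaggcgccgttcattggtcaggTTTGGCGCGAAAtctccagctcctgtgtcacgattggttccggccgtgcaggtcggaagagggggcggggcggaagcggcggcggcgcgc
Across all protein-coding genes, 58 of 872 promoters with a string had a V5 K450RK451R summit within 1 kb of the canonical start (6.65%, Wilson interval 5.18 to 8.50%). Of 19211 promoters without a string, 781 had one (4.07%, 3.80 to 4.35%). Promoters with and without a string were not matched for GC content, and its part in this difference was not tested. Among the 28 genes, 0 of the 15 with a string and 2 of the 13 without had a peak there, and 0 of 15 allows a share of up to 20%. A match is a description of the letters and not of a bound site.

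**Figure D2:**
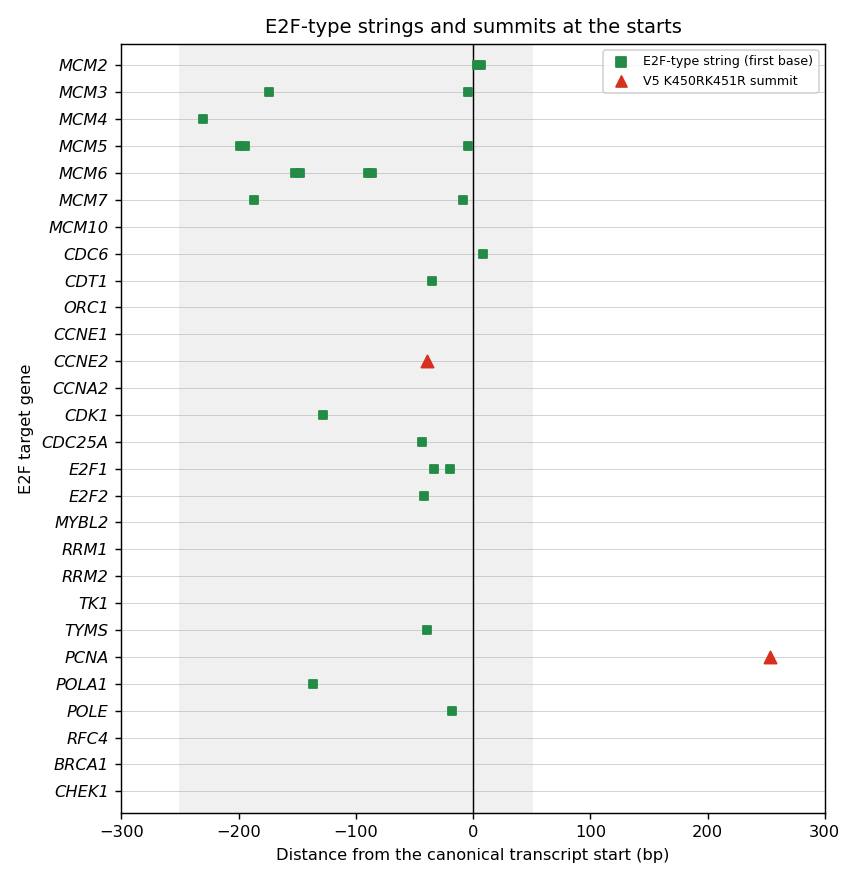
Positions of E2F-type strings (green squares, first base) and of V5 K450RK451R summits (red triangles) around the canonical transcript start of the 28 genes, in bp along the direction of transcription. The searched stretch is shaded. In the searched stretch, strings occur in 15 genes, among them MCM2 to MCM7. Both summits, at CCNE2 and PCNA, belong to genes without one there, while outside it a string lay 329 bp from the PCNA summit.

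The cyclins and kinases drive the cell cycle past its transitions. CCNE1 and CCNE2 are the E-type cyclins of the G1 to S step, CCNA2 acts in S phase and later, CDK1 is the mitotic kinase and CDC25A the phosphatase that activates cyclin-dependent kinases. Of these 5 genes, CCNE2 and CDC25A had a V5 K450RK451R peak and CCNE1, CCNA2 and CDK1 had none in any list, where 0.615 of 5 would have one at the share of genes of like length. The nearest V5 K450RK451R summits to the 3 genes without a peak were 137 kb away at CCNE1, 199 kb at CCNA2 and 72.5 kb at CDK1.

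The CDC25A peak (chr3:48193596-48193715) lay past the end of its gene. The summit lay 5.01 kb beyond the gene end and 36.3 kb from the start, with the nearest other protein-coding gene, MAP4, 62.9 kb away. It had a pileup, the number of extended reads at the summit, of 9 (exact Poisson 95% interval 4.12 to 17.1) over a background of 1.38, a fold enrichment of 4.202 with −log10 q = 2.23. Only 18.8% of peaks in the list had a lower −log10 p, the lowest standing of the 4. The sequence, read on the strand of the gene, is shown because it lies far from any annotated start of the gene. The peak has 1 CpG, in capitals, no E2F-type string and no match to 7SL, and all of its 51-base stretches were unique:
CDC25A peak: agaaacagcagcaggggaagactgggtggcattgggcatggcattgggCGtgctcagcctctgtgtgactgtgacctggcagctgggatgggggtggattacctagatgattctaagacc
The promoter of the gene itself (chr3:48229908-48230157, minus strand, hg19) had an E2F-type string 44 bases before the start, in capitals, and no peak in any list:
CDC25A promoter: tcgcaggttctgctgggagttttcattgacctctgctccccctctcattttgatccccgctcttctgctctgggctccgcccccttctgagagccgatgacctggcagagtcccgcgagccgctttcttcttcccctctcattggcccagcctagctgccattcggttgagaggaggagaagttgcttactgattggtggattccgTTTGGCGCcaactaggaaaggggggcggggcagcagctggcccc

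The CCNE2 peak (chr8:95907382-95907481) lay at a transcript start. Its summit was 39 bp upstream of the canonical start and 14 bp downstream of the start of another CCNE2 transcript. The annotated gene reaches 1.48 kb farther out than the canonical transcript, so the summit was 1438 bp inside the gene record and counted outside the promoter as first defined. The sequence up to 100 bases on either side of the summit was 73.6% GC with 27 CpG, and all 151 of its 51-base stretches were unique in the genome. The pileup was 10 (Poisson interval 4.80 to 18.4) over a background of 1.33, a fold of 4.72 with −log10 q = 2.96. Of the whole list, 46.7% of peaks had a lower −log10 p. The gene record of NDUFAF6, a gene for a mitochondrial assembly factor on the opposite strand, starts 293 bp from the summit. Relative to the canonical start of NDUFAF6, the summit was at −129749 bp.

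Of the 3 transcription factor genes, none had a peak in any list, where 0.517 would have a V5 K450RK451R peak at the share of genes of like length. E2F1 and E2F2 are activator E2F factors and MYBL2 encodes B-MYB, which acts on genes of the later cycle. The nearest V5 K450RK451R summit was 123 kb from E2F1, 166 kb from E2F2 and 14.3 kb from MYBL2.

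The E2F1 promoter (chr20:32274192-32274441, minus strand, hg19) is shown as that of an E2F gene itself. It held 2 strings, in capitals, at 33 and 20 bases before the start:
E2F1 promoter: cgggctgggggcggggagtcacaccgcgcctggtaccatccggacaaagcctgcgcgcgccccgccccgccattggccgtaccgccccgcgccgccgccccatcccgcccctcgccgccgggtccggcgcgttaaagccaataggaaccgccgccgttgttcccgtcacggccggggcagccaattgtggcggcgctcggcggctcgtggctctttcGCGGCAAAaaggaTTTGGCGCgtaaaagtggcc

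The 4 genes of nucleotide synthesis had no V5 K450RK451R peak, where 0.881 would have one at the share of genes of like length. RRM1 and RRM2 are the subunits of ribonucleotide reductase, TK1 is thymidine kinase and TYMS thymidylate synthase. The TYMS peak of H3K9me2 in the K451R line (chr18:656358-656457) was the sole H3K9me2 peak at the 28 genes. Its summit lay 1260 bp upstream of the TYMS start, within introns of the antisense long noncoding RNA gene TYMSOS. The pileup was 10 (Poisson interval 4.80 to 18.4) over a background of 1.24, a fold of 4.91 with −log10 q = 2.91. It ranked 1116 of the 1133 peaks in its list by −log10 p, and no other list had a peak there. The peak sequence on the plus strand is shown with its 1 CpG in capitals, and the TYMS promoter (chr18:657403-657652, plus strand, hg19) with the E2F-type string 39 bases before the start, read from the opposite strand, in capitals:
TYMS peak: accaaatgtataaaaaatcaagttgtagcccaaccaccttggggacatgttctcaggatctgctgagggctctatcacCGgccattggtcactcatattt
TYMS promoter: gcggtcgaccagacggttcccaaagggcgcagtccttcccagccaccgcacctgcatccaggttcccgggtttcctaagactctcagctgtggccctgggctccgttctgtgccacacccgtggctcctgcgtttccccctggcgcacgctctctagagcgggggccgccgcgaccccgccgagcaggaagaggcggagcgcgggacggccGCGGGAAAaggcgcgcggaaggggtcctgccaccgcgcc
The nearest V5 K450RK451R summit to TYMS was 215 kb away, the farthest of the 28 genes.

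Of the 4 genes for polymerases and the sliding clamp, PCNA and POLA1 had a V5 K450RK451R peak and POLE and RFC4 had none, where 1.251 of 4 would have one at the share of genes of like length. PCNA is the clamp that holds polymerases on DNA, POLA1 the catalytic subunit of the polymerase that starts each strand, POLE that of the leading-strand polymerase and RFC4 a subunit of the clamp loader. The nearest V5 K450RK451R summits were 71.7 kb from POLE and 58.1 kb from RFC4.

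The PCNA peak (chr20:5100280-5100478) lay in the first coding exon. Its summit was 253 bp downstream of the canonical start, but 6921 bp inside the gene record, which begins 6.67 kb farther upstream with another transcript. It rested on 9 reads (Poisson interval 4.12 to 17.1) over a background of 1.16, a fold of 4.63 with −log10 q = 2.78, and 29.8% of the list had a lower −log10 p. The sequence up to 100 bases on either side of the summit was 60.7% GC with 13 CpG and unique in all 151 stretches, and the nearest E2F-type string lay 329 bp from the summit. The coding bases of the peak from the start codon on (chr20:5100280-5100444, minus strand, hg19) are shown because they place the summit in the gene. CpG are in capitals:
PCNA peak: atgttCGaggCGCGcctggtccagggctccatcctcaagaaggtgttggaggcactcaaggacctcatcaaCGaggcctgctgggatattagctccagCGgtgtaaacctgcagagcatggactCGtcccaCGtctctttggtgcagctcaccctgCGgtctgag

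The POLA1 peak was of another kind. POLA1 is the longest of the 28 genes at 303 kb, and 71.6% of genes of like length held a V5 K450RK451R peak. The summit was in intron 4, 15.3 kb after the start, and rested on 11 reads (Poisson interval 5.49 to 19.7) over a background of 1.26. Its fold of 5.31 and −log10 q of 3.93 were the highest of the 4, and 70.6% of the list had a lower −log10 p. The sequence was 80.6% GC, only 2 of its 151 stretches of 51 bases were unique, and its 25-base stretches occurred a median of 1610 times in the genome. Within the peak, a stretch of 19 bases occurred 4 times at a spacing of 49 bases. The part of read placement in this peak was not tested.

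**Figure D3:**
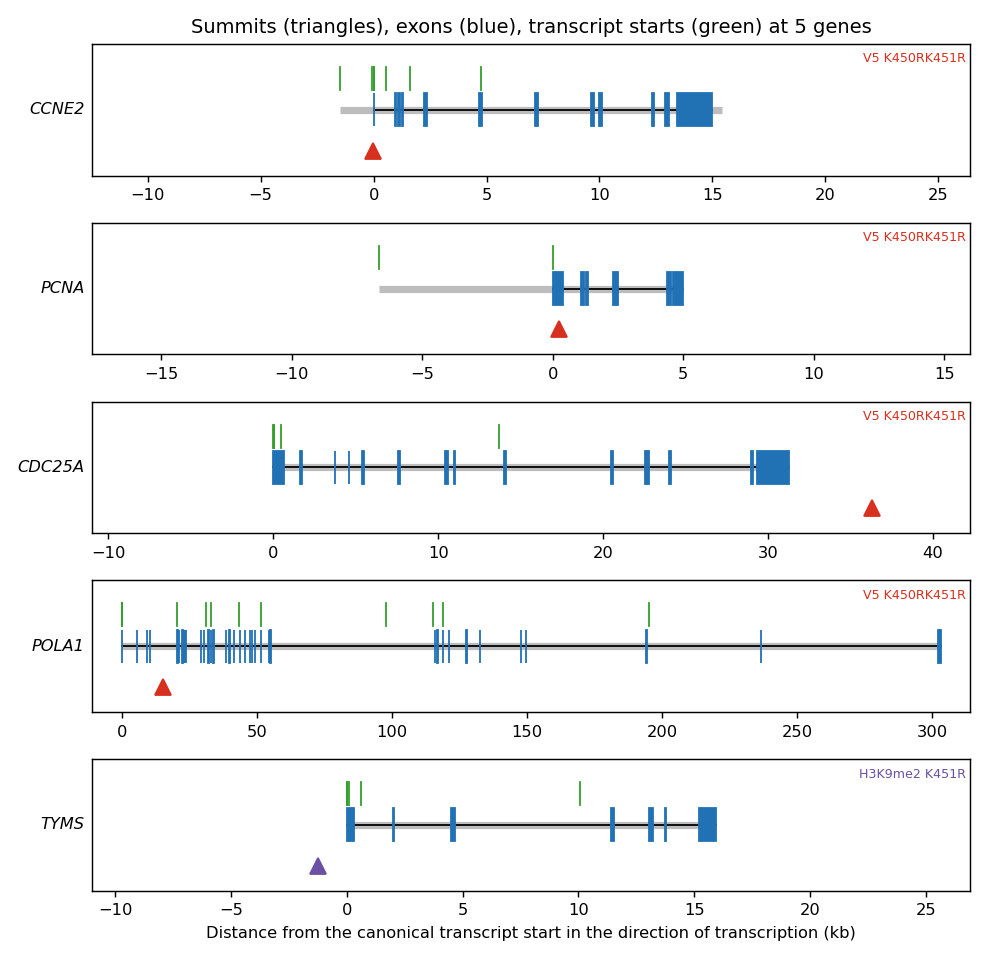
Maps of the 5 genes with a peak, in kb from the canonical transcript start along the direction of transcription. Blue boxes are exons of the canonical transcript, the grey bar is the whole gene record, green ticks are transcript starts, and triangles are summits (red for V5 K450RK451R, purple for H3K9me2 K451R). At CCNE2 and PCNA the summit sits at the canonical start while the gene record begins farther upstream, and at CDC25A it lies beyond the gene end.

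The 2 checkpoint and repair genes had no peak. CHEK1 is the kinase that answers stalled forks and BRCA1 a repair factor, and 0.778 of these 2 long genes would hold a V5 K450RK451R peak at the share of genes of like length. The nearest summit to BRCA1 was the same site in all 9 lists (chr17:41381656-41382421 in V5 K450RK451R), 104 to 105 kb from the canonical start. There the pileup was 17 in V5 WT, 15 in V5 K450R, 23 in V5 K451R and 62 in V5 K450RK451R. It was 27 in H3K9me2 WT, 22 in K450R, 44 in K451R and 13 in K450RK451R, and 36 for endogenous EHMT1. These pileups are not scaled to the estimated reads of each list, so they are not compared between lists. The reads were 8.84 M for V5 WT, 11.1 M for V5 K450R, 14.1 M for V5 K451R and 22.7 M for V5 K450RK451R. For H3K9me2 they were 17.9 M in WT, 14.0 M in K450R, 27.6 M in K451R and 8.79 M in K450RK451R, and for EHMT1 26.8 M. Fold enrichment ran from 6.48 to 10.2. No other member had the nearest summit of all lists in a single place. At TK1, the nearest V5 K450RK451R and EHMT1 summits were 71.3 and 71.4 kb away.

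How a promoter is defined decided whether any of the 28 had a promoter peak. Within 1 kb of the gene record's start, 0 of 28 had a summit in any of the 9 lists, which allows up to 10.7%, beside 3.89% of other genes in V5 K450RK451R and 0.419% in at least 1 of the other 8 lists. Within 1 kb of the canonical start, CCNE2 and PCNA had a V5 K450RK451R summit (2 of 28, 7.14%, Wilson interval 1.98 to 22.6%), beside 4.17% of other genes, and the other 8 lists again had none, beside 0.469% of other genes in at least 1 of them. With the start of any transcript the 2 genes were again CCNE2 and PCNA, beside 6.27% of other genes for V5 K450RK451R and 0.753% for the other 8 lists, which had none. The canonical start was more than 1 kb from the gene record's start in 4 members, CCNE2, RRM2, PCNA and BRCA1, and in 16.4% of other genes.

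The distance from the canonical start to the nearest V5 K450RK451R summit had a median of 78.1 kb over the 28 genes (0.039 to 215 kb) and of 78.7 kb over other genes. In 8 of 28 genes it was within 50 kb and in 15 within 100 kb, beside 36.7% and 57.6% of other genes. Endogenous EHMT1 summits were at a median of 701 kb (71.4 to 24427 kb), beside 1051 kb for other genes. V5 WT summits were at a median of 11034 kb, beside 8632 kb. A list with more peaks has nearer summits at any gene, so distances are read against other genes of the same list and not between lists.

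**Figure D4:**
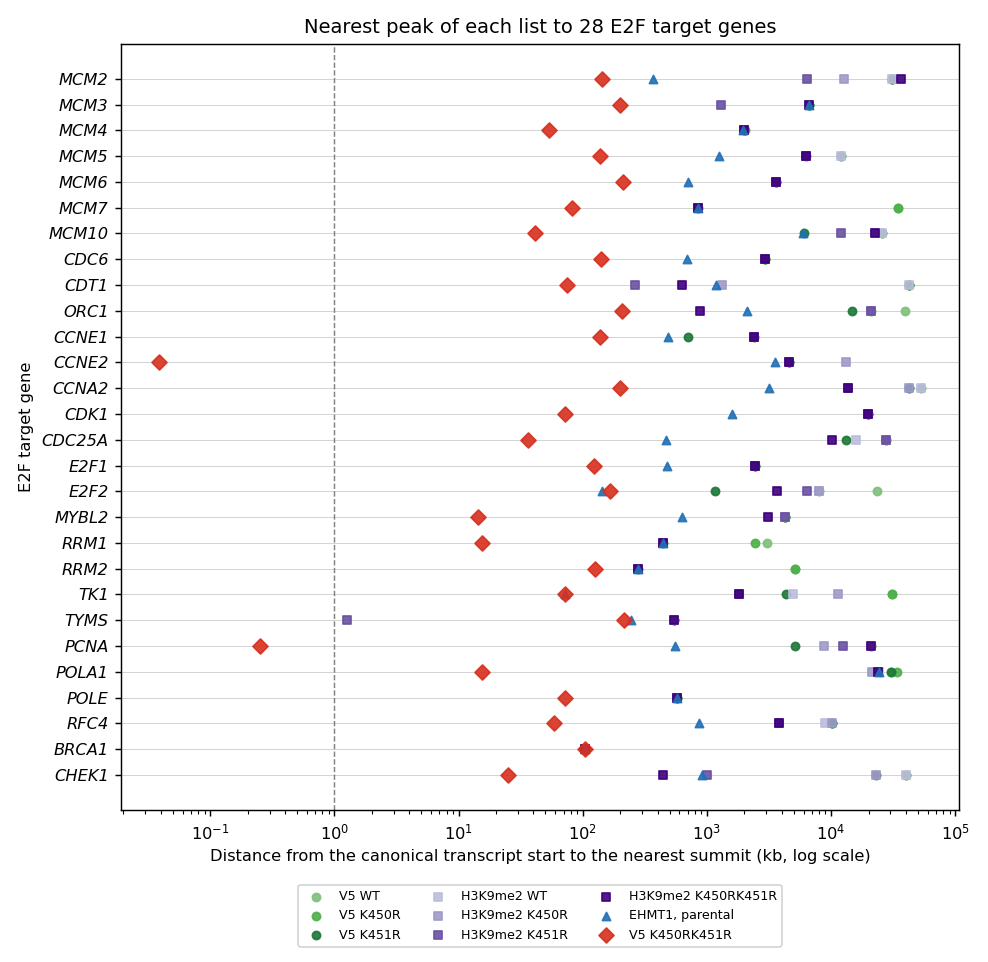
Distance in kb (log scale) from the canonical start of each of the 28 genes to the nearest summit of each list. Red diamonds are V5 K450RK451R, green circles the other V5 lists, purple squares the H3K9me2 lists and blue triangles endogenous EHMT1, and points can cover each other. The dashed line marks 1 kb, which the red diamonds of CCNE2 and PCNA alone fall below, and all lists meet near 104 kb at BRCA1.

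All 4 V5 K450RK451R peaks at the genes were supported by few reads, as was most of that list, in which 81.9% of peaks had a pileup of at most 11. Among peaks of the list with a background within 10% of theirs, the lowest pileup was 7 and the median 10, so the pileups of 9 to 11 lay near the median. Scaled to the reads estimated for V5 WT, the 4 pileups would be 3.51 to 4.29, while the lowest pileup called in that list was 7. Scaled to V5 K450R they would be 4.40 to 5.38, with a lowest called pileup of 6, and to V5 K451R 5.61 to 6.85, with a lowest of 7. A site with the same density of reads would therefore be expected below the lowest pileup called in the V5 WT list, although counting error could lift it above. A difference between V5 WT and V5 K450RK451R at these genes cannot be told apart from the difference in reads.

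**Figure D5:**
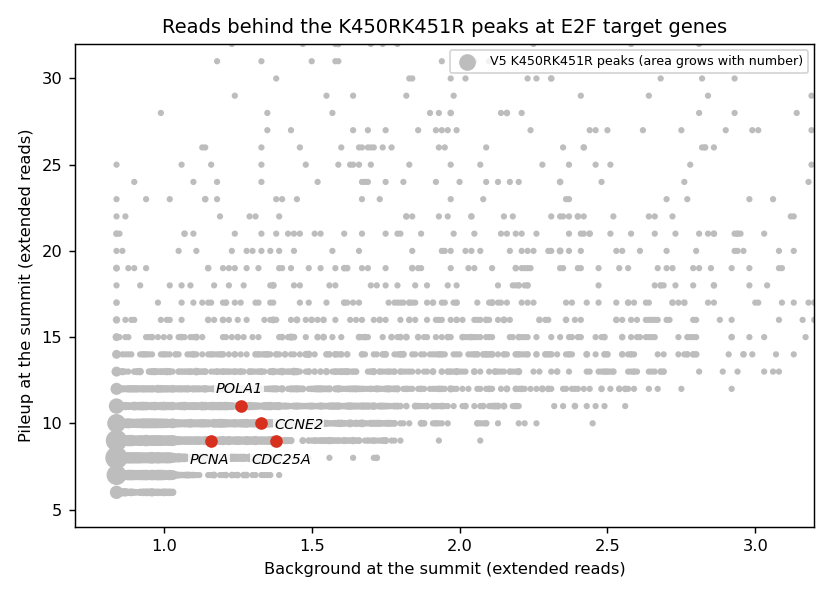
Pileup at the summit against local background, both in extended reads, for the V5 K450RK451R peaks (grey, area grows with the number of peaks at a position) and the 4 peaks at E2F target genes (red). The 4 lie at pileups of 9 to 11, near the median of 10 for peaks of the list with like background. A further 964 peaks with a background above 3.2 or a pileup above 32 are not drawn.

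None of the 5 peaks matched 7SL. The windows of the 28 genes, 1.65 Mb in all, held 2.43 V5 K450RK451R peaks per Mb (Poisson interval 0.661 to 6.21), and those of other genes 4.91. Of the latter, 3.03 per Mb matched 7SL and 1.87 did not. At these densities the windows of the 28 genes would hold 5.003 peaks that match 7SL and 3.09 that do not, where 0 and 4 were found. The zero allows up to 1.82 per Mb. Of 3398 summit-sized tiles in these windows, 26.99% matched 7SL (Wilson interval 25.5 to 28.5%). In the windows of other genes, 15.9% of 70579 tiles did (15.6 to 16.2%). The tiles cover only part of the windows, and a smaller part for other genes. Neighbouring tiles share repeats, so these intervals are too narrow.

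Farther out, Alu-type peaks did appear. With flanks of 50 kb, 8 of the 28 genes had a V5 K450RK451R peak, 10 peaks in all, beside 46.7% of other genes. The 6 added peaks belonged to MCM10, with 2, RRM1, with 2, CHEK1 and MYBL2, and 5 of the 6 matched 7SL, with pileups of 6 to 11. Those closest to the 10 kb limit were at MYBL2, 14.2 kb from the gene body, and at RRM1, 15.5 kb from it. The sixth, 36.6 kb past RRM1, did not match 7SL and had no unique 51-base stretch. The other lists gained no gene at 50 kb.

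Another 70 genes of the E2F pathway were counted in the same way. In V5 K450RK451R, 20 of 70 had a peak in the window (28.6%, Wilson interval 19.3 to 40.1%), with 33 peaks, beside 26.9% of genes of like length. By role these were 3 of 11 E2F and pocket protein genes, 6 of 16 for origins and forks, 6 of 19 for polymerases and synthesis, 2 of 6 for repair, 3 of 8 for chromatin and 0 of 10 for mitosis. The roles differ in gene length, and the mitosis genes reach only from 4.22 kb (CDC20) to 40.5 kb (BUB1). No share of genes of like length was computed by role here, so the roles cannot be compared. EHMT1, V5 WT and the 4 H3K9me2 lists had 0 of 70, which allows up to 4.29%. For EHMT1, 1.98% of genes of like length had a peak. Among 20055 protein-coding genes, the share with a peak was 0.334% for V5 WT and 0.519% to 0.898% for the H3K9me2 lists. All of these shares lie below 4.29%, so the zeros do not set the 70 genes apart from other genes. PRIM2, a primase subunit and at 334 kb the longest of the 70 genes, had 5 peaks. E2F5, TFDP2, RBL1, GINS3, MCM8, POLD3, RFC1 and EZH2 had 2 each, with lengths from 40.0 kb (E2F5) to 205 kb (TFDP2). These counts are not adjusted for gene length. Of the 38 peaks in the windows and promoters of the 70 genes, 26 matched 7SL (68.4%), beside 52.4% of the whole list. In the windows of protein-coding genes outside the 28, 3.03 of 4.91 peaks per Mb matched it.

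A V5 K450RK451R summit lay within 1 kb of the canonical start in 4 of the 70 (5.71%, Wilson interval 2.24 to 13.8%), near the 4.17% of the 20055 protein-coding genes outside the 28. At E2F6, a repressor of the family, it was 254 bp after the start with a pileup of 8 and a fold of 4.55. At E2F7, also a repressor, it was 275 bp before the start with a pileup of 9 and a fold of 5.21. At TFDP2, which encodes a DP partner, it was 182 bp before the start with a pileup of 8 and a fold of 4.57. The fourth, 546 bp before the start of RFC1, the large subunit of the clamp loader, had a pileup of 10 and a fold of 5.39 and matched 7SL. By the start of the gene record POLD3, a polymerase subunit, was added, with a summit 99045 bp before its canonical start, a pileup of 13 and a fold of 6.57.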

How the data were processed

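ChIP-seq was measured in LNCaP lines. According to the labels and the study's methods, MACS2 called the peaks from single-end 51-nt reads aligned on hg19. The submitters' processing notes name FastQC 0.11.9, BWA 0.7.9a, SAMtools 1.2 and MACS2 2.1.0. The authors deposited 1 narrowPeak list per group, and whether the 2 replicates were pooled is not given in the sources used here. The deposited fold enrichment is a ratio of pileup to background at the summit, with 1 added to each. The deposited −log10 p and −log10 q (from p-values and q-values of the peak caller) and the score column, which repeats −log10 q on another scale, came with it.

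Pileup and background were solved from fold and −log10 p as (pileup + 1)/(background + 1) and a Poisson tail, with a solution for 100% of peaks. Reads were estimated from the lowest background, an effective genome of 2.7 Gb and an extension of 100 bp, which were inferred and not stated. Genes, transcripts and canonical starts were taken from GENCODE version 44 on hg19, without 15 records that share a symbol. Peaks on chromosomes 1 to 22 and X were used. Summits with 100 bases on either side were compared with 7SL RNA by blastn 2.17.0 (e-value 1e-05), and 51-base and 25-base stretches were counted in the genome on both strands. The RefSeq promoter table (GRCh38.p14) was matched to hg19 by exact sequence, for 25 of 28 genes. The solving of pileups, the counting of stretches and the assignment of peaks to windows were tested on simulated data. Python 3.11.15, numpy 2.4.6, pandas 2.3.3, scipy 1.17.1, pysam 0.24.0, numba 0.67.0 and matplotlib 3.10.9 were used.

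No test was made, since each group has 1 list, and counts are descriptions. The 28 genes were all those listed by name and received. They, the 70 pathway genes and the alternatives were chosen with earlier results of these data known. All 28 are accounted for by role, and of the 70 those with a promoter peak or the most window peaks are named, apart from 1 that is not reported here.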

Additional observations from a re-analysis of the deposited data

How the results depend on the processing

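The 4 genes with a V5 K450RK451R peak in the window became 0 at −log10 q of at least 5 or 10 and with equal numbers of peaks per list (581), 1 (POLA1) at a fold of at least 5 or, chosen after seeing the data, −log10 q of at least 3, and 2 (CCNE2 and POLA1) with a common −log10 p cutoff of 6.61. They became 2 (CDC25A and POLA1) with the promoters of every transcript left out or, chosen after seeing the data, that of the canonical transcript. They were 3 (CCNE2, PCNA and POLA1) in the gene body without flanks, and 8 with 50 kb flanks. The number of peaks was the same as the number of genes in each case except 50 kb, with 10. POLA1 alone was left at a fold of at least 5 and at −log10 q of at least 3. At its summit only 2 of 151 stretches of 51 bases were unique. Promoter peaks went from 0 to 2 with the start of the canonical or of every transcript, both chosen after seeing the data. The single H3K9me2 gene, TYMS, became 0 at −log10 q of at least 5 or 10, at a fold of at least 5, with equal numbers and without flanks. No gene had an EHMT1 peak in any of the 12 alternatives run. Only 50 kb flanks, any overlap of a peak and keeping the promoter could have added one. The other alternatives only remove peaks or narrow the window, so they could not change the 0. The difference to genes of like length, −5.69 points, ran from −13.99 (50 kb flanks) to 5.86, and was below 0 in 15 of 16 alternatives. At −log10 q of at least 5 or 10 and with equal numbers, 0 of the 28 genes had a peak. There the difference could not be above 0, so these alternatives say nothing on its direction. The difference was above 0 without 7SL matches, where the 4 genes stayed and the share of genes of like length was 8.42%. The interval of the members' share holds 8.42% as well.

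No paired analysis was possible because the lists used, 1 a group, hold no values per replicate, and no replicate was left out. The 4 peaks rest on 9 to 11 reads each, and the part of depth in these counts was not tested.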
